A study of Mus musculus with 20 samples.

Results

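The contraceptive diet was compared with the vehicle diet in the livers of sedentary female mice. This took 10 of the study's 20 RNA-seq libraries: the 5 labelled OC.Sed, from mice given oral combined contraceptives (OC) and no running wheel, and the 5 labelled Con.Sed, from sedentary mice on the vehicle diet. The other 10 libraries came from mice on the same diets with voluntary wheel running. Each library was made from liver RNA of 1 mouse, so the replicates were separate animals. The contraceptive compounds, their doses, the length of feeding, and the strain and age of the mice are not given in the sources used here. Genes were used where their line of the count table was intact, which left 23993 genes, and 10207 of these passed a filter on low counts and were tested.

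Combined oral contraceptives pair an oestrogen with a progestin. The liver takes up both, carries oestrogen receptor alpha, and secretes most plasma proteins, among them clotting factors, complement, hormone carriers and apolipoproteins. The mouse liver also differs between the sexes: the pattern of growth hormone release, read through the transcription factor STAT5B, keeps one set of genes high in males (such as the major urinary proteins, Mup) and another high in females (such as Hao2, A1bg and Cux2).

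Total counts over the intact lines ran from 10883936 to 14260634 in the 5 vehicle libraries and from 12172401 to 14759028 in the 5 OC libraries. On the first principal component, with 42.8% of the variance, the vehicle libraries lay between -33.8 and -21.2 and the OC libraries between 16.7 and 33.9. Vehicle replicate 2 stood apart on the second component (18.6%), at -47.4 against -4 to 20.3 in the other 9. For many of the results that rest on it, but not for all, the value without it is given too. The labels used here name no batch. All 14 tested hepatocyte markers had counts in the 10 libraries. Xist, the RNA of the inactive X chromosome, was at 1015 to 2030 CPM (normalised read counts on a common library scale) on vehicle and 747.1 to 1324 CPM on OC. CPM values are scaled for library size and composition but not for gene length, so they are compared between libraries and not between genes.

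On OC 930 genes were higher and 735 lower at an adjusted p under 0.05 (edgeR quasi-likelihood test, Benjamini-Hochberg over all genes tested). That is 16.3% of the genes tested, 9.11% higher and 7.2% lower, beside which every list below is to be read. Of these 354 changed more than 2-fold (171 higher, 183 lower) and 120 more than 4-fold (81 higher, 39 lower). The median fold was 1.42 among the higher and 1.54 among the lower genes, and 889 of the called genes (53.4%) moved by less than 1.5-fold. The 5 OC libraries did not overlap the 5 vehicle libraries for 605 of the 930 and 357 of the 735. Among all genes tested 1125 had no overlap, and 163 of these were not called. Absence of overlap, given for single genes below, is therefore a description of the values and not a separate test. Calls were more frequent among abundant genes, from 9.51% of genes under 1 CPM to 27.5% of the 102 most abundant genes. Of the 1665 genes, 746 (44.8%) kept their call in each of 19 alternative analyses that gave a value, and 266 of the 354 over 2-fold did. With the 10 sedentary libraries fitted by themselves 1123 genes were called (634 higher, 489 lower). Without OC replicate 1 the count fell to 998 (549 higher, 449 lower), and without OC replicate 2 the lower genes numbered 473. With library totals as the only scaling, which moves the median of all genes from -0.01 to 0.10, 1712 were higher and 360 lower, so the higher share went from 55.9% to 82.6%.

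**Figure D1:**
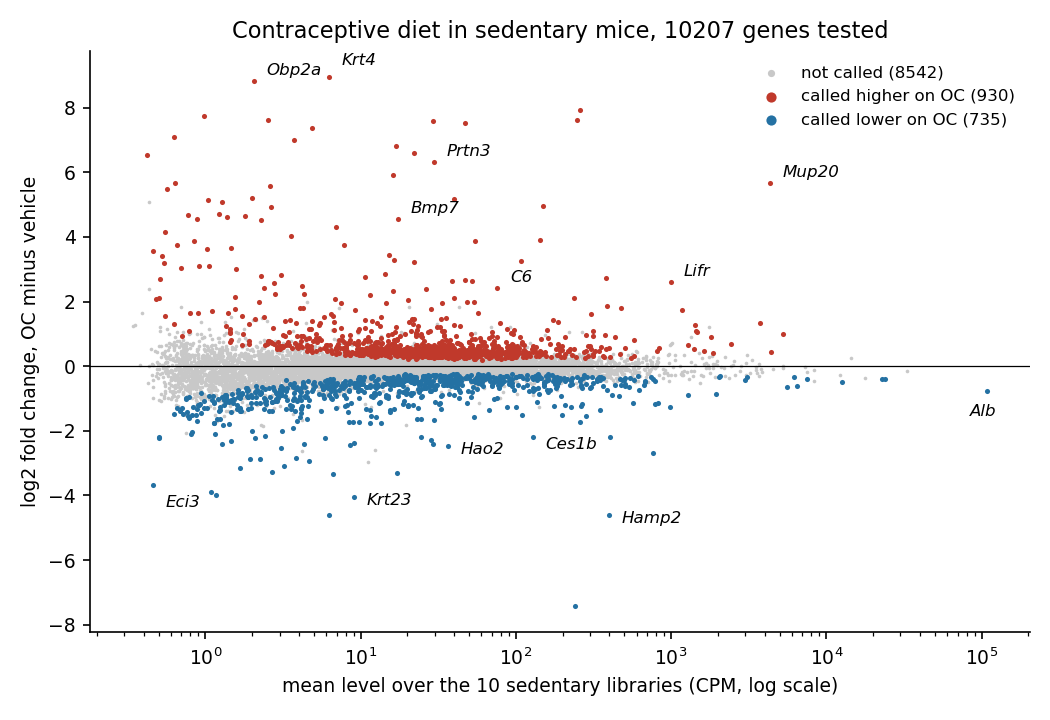
Fitted log2 fold change (OC minus vehicle, y axis) of each of 10207 genes against its mean level over the 10 sedentary libraries (CPM, log scale, x axis); red points are called higher (930), blue lower (735), grey not called. The largest increases lie at low to moderate levels, and Alb, at the right edge, lies below 0.

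Genes that mark the sex of a mouse liver were among those with large changes. Mup20 (chr4:62050234-62054158, minus strand), which encodes the male urinary pheromone darcin, was at 41.2, 593.4, 39.8, 59.6 and 105.1 CPM in the vehicle libraries and at 7351, 10373, 4341, 7907 and 12588 CPM on OC. Every OC library was above every vehicle library, and the highest vehicle library was replicate 2. The fitted log2 fold change was 5.67 (SE 0.71, adjusted p = 1.6e-05), and 7.12 without vehicle replicate 2. Together the 22 Mup genes with intact lines took 0.352% ± 0.15 of the counts in intact lines on vehicle and 1.79% ± 0.749 on OC (SD, n = 5). This difference had p = 0.00794 in an exact permutation test, two-sided, the smallest that 5 against 5 can give. Mup21, a more distant member of the family, rose from 18 ± 10.1 to 268.9 ± 99.3 CPM, with a log2 fold change of 3.90 (SE 0.40, adjusted p = 1.56e-06).

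Mup15 and Mup17 were at most 5.74 and 7.07 CPM on vehicle. On OC Mup15 was at 90.3, 350.9, 244.9, 180 and 1716 CPM, with the highest value in OC replicate 5. Mup17 was at 74.4, 369.6, 256.2, 184.2 and 1563 CPM, and replicate 5 was again the highest. Their fitted log2 fold changes were 7.92 and 7.62, and 6.67 and 6.47 without OC replicate 5. Both moved to 8.65 and 8.43 without vehicle replicate 5. Mup18 rose from 0.462 ± 0.634 to 44 ± 36.1 CPM (fitted log2 values of 6.61, of 7.86 without vehicle replicate 5 and of 5.98 without OC replicate 5). Mup1 had 1 count in the vehicle libraries, in replicate 4, and 341 counts on OC, a ratio of 301.2 (95% counting interval 53.7 to 11933). Mup7 reached 436.1 CPM in OC replicate 5 against 4.23 to 14.3 CPM in the other 4. Without that library its log2 fold change went from 7.51 to 4.03 and no longer passed (adjusted p = 0.0629). Mup11 and Mup14 were at most 0.883 and 0.442 CPM on vehicle and ranged over 10.6 to 176.1 and 4.27 to 142.3 CPM on OC. Their log2 fold changes were 7.58 and 6.80, and 6.56 and 4.46 without OC replicate 5. Mup11 moved to 8.42 without vehicle replicate 5. Neither passed in limma voom (adjusted p = 0.0752 and 0.136). Mup3, the member with the highest vehicle values among those named here, went from 3502 ± 1814 to 7060 ± 2726 CPM with overlapping groups (log2 fold change 1.01, adjusted p = 0.0391). It missed the threshold when vehicle replicate 1 (adjusted p = 0.0738), 2 (0.0684) or 3 (0.0811), or OC replicate 2 (0.0688) or 5 (0.126), was removed. Mup3 also missed it with the 10 sedentary libraries fitted by themselves (adjusted p = 0.0801). Mup genes are near-identical copies, so reads may have been shared out between them and single members are uncertain.

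In the list of male-biased liver genes 22 of 25 tested members were called higher and 0 lower, with a median log2 fold change of 3.90, beside a median of -0.01 over all genes tested. Of the 22, 17 kept their call in each alternative, and 17 of the 22 are Mup genes, so the members are not independent.

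Most tested female-biased genes were lower. Hao2, a peroxisomal hydroxy acid oxidase, was at 62, 31.8, 97.3, 44.5 and 72.9 CPM on vehicle and at 12.2, 15, 9.98, 14.6 and 3.72 CPM on OC. The highest OC library stayed below the lowest vehicle library, replicate 2 (log2 fold change -2.47, SE 0.37, adjusted p = 0.000144). Fmo1, a flavin-containing monooxygenase, was at 376.7 ± 80.3 and 360.8 ± 54.1 CPM and did not pass (adjusted p = 0.827).

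A1bg, a plasma glycoprotein, was at 10.9, 106.4, 11.2, 13.3 and 14.7 CPM on vehicle and at 2.37 to 4.27 CPM on OC. The OC and vehicle libraries did not overlap, but the log2 fold change of -3.31 (adjusted p = 0.0103) became -2.0 without vehicle replicate 2 and missed the threshold (adjusted p = 0.0546). Eci3, a peroxisomal enoyl-CoA isomerase, was at 0.696 to 4.59 CPM on vehicle and 0 to 0.388 CPM on OC. Its fitted log2 fold change was -3.98 and its level so low that the fold is imprecise (-4.79 without OC replicate 5). Cux2, a female-specific transcriptional repressor, had overlapping groups at 96.9 ± 41 and 37.7 ± 16.1 CPM. It passed at adjusted p = 0.0423 and failed in 8 of 19 alternatives, each of which left out 1 library, at adjusted p up to 0.0963.

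Of 15 tested female-biased genes 12 were called lower and 0 higher, with a median of -1.23, and 8 of the 12 kept their call in each alternative. Bcl6, the male-biased repressor that opposes STAT5 at many of these genes, was at 33.2 ± 29.8 and 25.8 ± 14.4 CPM with overlapping groups (adjusted p = 0.627).

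**Figure D2:**
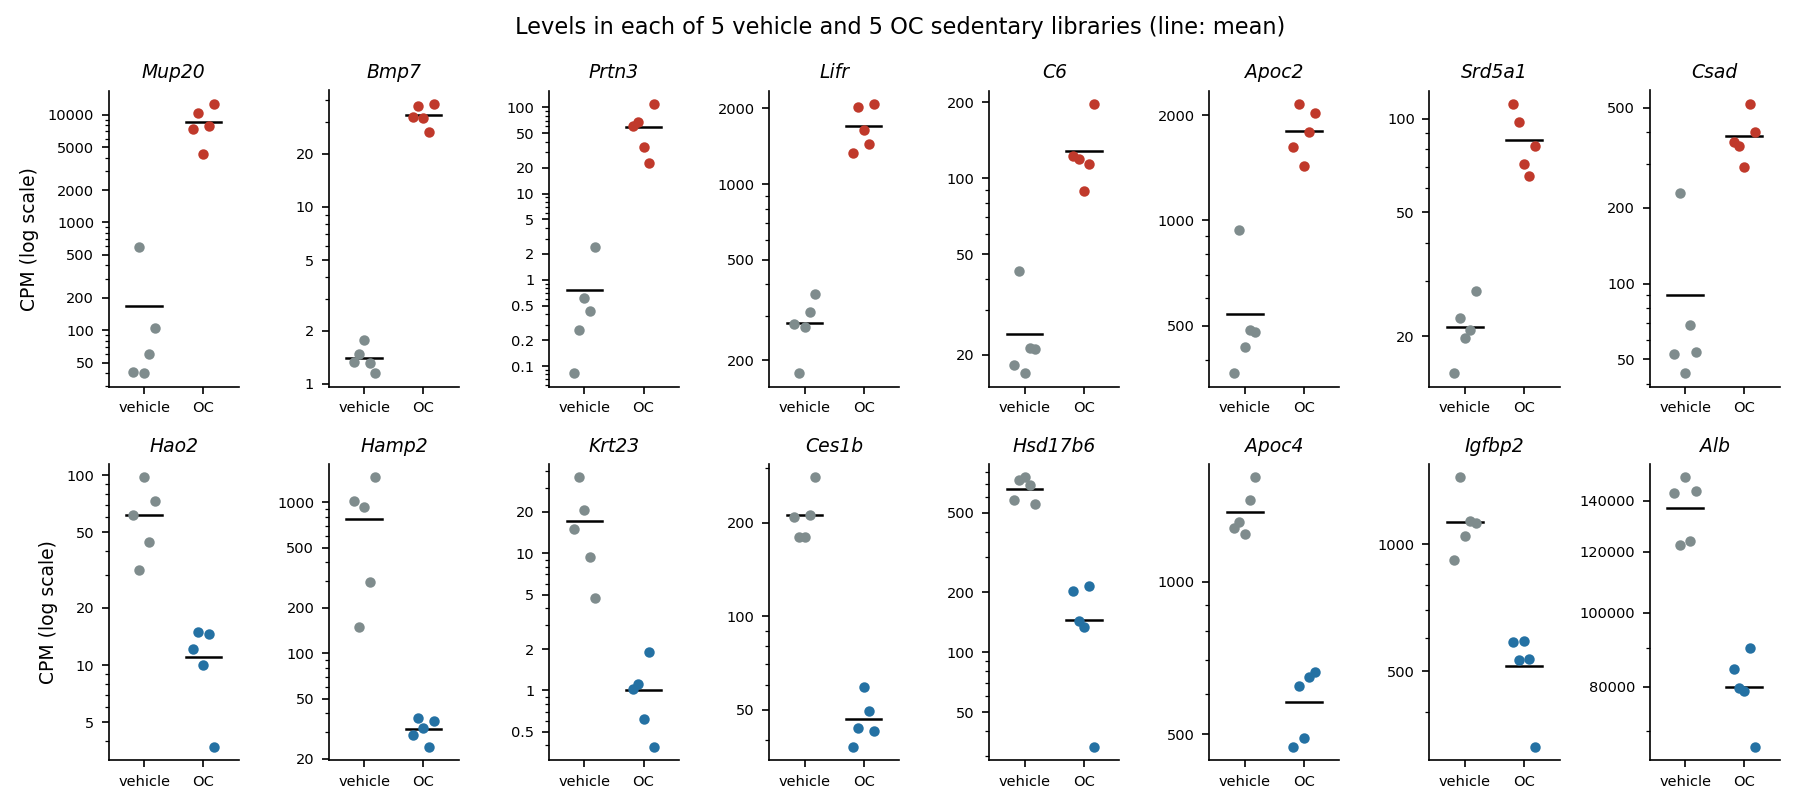
Level of 16 genes in each of the 5 vehicle and 5 OC sedentary libraries (CPM, each panel with its own log axis; lines are means). In every panel the 5 OC points lie wholly above (upper row) or below (lower row) the 5 vehicle points.

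The growth hormone and cytokine receptor axis changed at a few of its members. Lifr, the receptor subunit that pairs with gp130 for leukaemia inhibitory factor, was at 277.1, 177.3, 271.3, 310.7 and 367 CPM on vehicle and at 1335, 2028, 1637, 1440 and 2082 CPM on OC. The lowest OC library was well above the highest vehicle library. Lifr was the 1 of 8 tested receptor genes of this family that was called. Il6st, which encodes gp130 itself, was at 209.2 ± 24.1 and 249.6 ± 23.4 CPM (log2 fold change 0.25, adjusted p = 0.106), and passed with library totals as the only scaling (adjusted p = 0.0343).

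Stat5a was at 22, 19.7, 16.6, 20.7 and 12.7 CPM on vehicle and 56.1, 61, 55.1, 29.6 and 58.3 CPM on OC. There was no overlap between the groups, and OC replicate 4 was the lowest OC library (log2 fold change 1.5, SE 0.24, adjusted p = 0.000255). Its paralogue Stat5b, the main STAT of male-type growth hormone signalling, was at 79 ± 13.9 and 93.1 ± 11.8 CPM (log2 fold change 0.24, adjusted p = 0.205), and passed with library totals alone (adjusted p = 0.043). The receptor Ghr (776.7 ± 210.9 and 857.6 ± 49.3 CPM, adjusted p = 0.527) and Igf1 (704.6 ± 103.1 and 693.1 ± 56.6 CPM, adjusted p = 0.915) did not pass. Of the carriers of IGF1, Igfbp2 fell from 1133 ± 193.2 to 514.5 ± 105.9 CPM, a log2 fold change of -1.14 (SE 0.19, adjusted p = 0.000366). Igfbp3 fell from 24.1 ± 7.66 to 14.2 ± 2.94 CPM (log2 fold change -0.76, adjusted p = 0.00826). In this list 4 of 20 tested genes were called higher and 2 lower, with a median of 0.09. Among the other higher genes, Foxa1 and Stat3 had log2 fold changes of 0.58 and 0.43 and lost their calls in 9 and 12 of the 19 alternatives. The higher count was 1 without vehicle replicate 2, 4 or 5 or OC replicate 1 or 3, and 2 without vehicle replicate 3 or OC replicate 5. Prlr, the prolactin receptor, was at 409 ± 134.3 and 379.7 ± 57.7 CPM (adjusted p = 0.758).

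Among steroid receptors and their cofactors 3 of 14 tested genes were called higher and 0 lower. Esr1, which encodes oestrogen receptor alpha, was at 98, 61.3, 75, 85.3 and 98.7 CPM on vehicle and at 117.1, 113, 156.9, 115.3 and 116.5 CPM on OC. The groups did not overlap, and OC replicate 3 was the highest (log2 fold change 0.56, SE 0.16, adjusted p = 0.0212). The call was lost without vehicle replicate 3 (adjusted p = 0.0501) and without OC replicate 3 (adjusted p = 0.0635). Greb1, a cofactor named for its growth response to oestrogen in breast cancer cells, had 1 count in the vehicle libraries, in replicate 4, and 77 on OC, a ratio of 68 (95% counting interval 11.9 to 2721). It had counts in each of the 5 OC libraries, at 0.437, 1.37, 1.77, 0.407 and 1.63 CPM. Pgr, the progesterone receptor, was too low to be tested, with 0, 0, 0, 0 and 1 counts on vehicle and 3, 1, 3, 1 and 14 on OC. Shbg, the sex hormone-binding globulin gene, had 0 counts in the 10 libraries.

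The 12 tested genes of the steroid enzyme list were called higher in 2 cases and lower in 3, with a median log2 fold change of -0.12. The 2 higher and 2 of the 3 lower genes kept their call in each alternative. Srd5a1, the steroid 5-alpha-reductase, was at 15.2, 22.8, 19.8, 21 and 28 CPM on vehicle and at 111.7, 97.4, 71.6, 65.7 and 81.8 CPM on OC. The OC and vehicle libraries did not overlap (log2 fold change 2.0, SE 0.17, adjusted p = 1.29e-07). Hsd17b2, which oxidises oestradiol and testosterone, was at 93.4 to 117.7 CPM on vehicle and 236.6 to 303.3 CPM on OC (log2 fold change 1.38, SE 0.13, adjusted p = 3.91e-07). Hsd17b6, an androstanediol-oxidising enzyme, was at 577.1, 728.9, 752.8, 688.1 and 555.9 CPM on vehicle and at 201.7, 144, 133.1, 215.7 and 33.5 CPM on OC. There was no overlap between the groups, and OC replicate 5 was the lowest (log2 fold change -2.18, SE 0.38, adjusted p = 0.000559). Hsd17b13, a lipid droplet protein of the family, fell from 775.9 ± 246.8 to 352.2 ± 38.4 CPM (log2 fold change -1.14, adjusted p = 7.37e-05). Hsd11b1, which regenerates active glucocorticoid, was at 1153 ± 300.1 and 958.8 ± 69.9 CPM (log2 fold change -0.27, adjusted p = 0.219), and passed without vehicle replicate 2 (-0.42, adjusted p = 0.00604).

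Promoters are printed as examples, for neighbouring genes that moved the same way and for Greb1, and each was chosen because its window holds a match. They are the 250 bases before the RefSeq transcript start on GRCm38.p6, 5′ to 3′ on the gene's own strand, with capitals marking the matches named. Hamp and Hamp2 encode hepcidins, the peptide hormones that limit iron export, lie on the minus strand of chromosome 7, and both fell. Capitals in them mark the STAT motif TTCNNNGAA, whose first base is at position -97 in Hamp and -94 in Hamp2 relative to the start.
Hamp, chr7:30944030-30944279: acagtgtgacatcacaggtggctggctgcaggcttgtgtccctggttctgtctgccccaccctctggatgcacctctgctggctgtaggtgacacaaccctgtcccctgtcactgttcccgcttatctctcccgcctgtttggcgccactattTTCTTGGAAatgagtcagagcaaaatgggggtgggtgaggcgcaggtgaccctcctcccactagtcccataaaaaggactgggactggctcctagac
Hamp2, chr7:30924182-30924431: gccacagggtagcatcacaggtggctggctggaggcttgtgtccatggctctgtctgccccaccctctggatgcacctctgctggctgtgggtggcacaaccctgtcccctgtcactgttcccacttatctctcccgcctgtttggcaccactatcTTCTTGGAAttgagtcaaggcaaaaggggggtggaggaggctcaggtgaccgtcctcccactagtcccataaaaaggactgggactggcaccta
C6 (plus strand) and C7 (minus strand) encode components of the membrane attack complex of complement, lie near each other on chromosome 15, and both rose. Capitals mark the oestrogen receptor half-site AGGTCA, at -40 in C6 and -72 in C7, and in C7 also the STAT motif at -164.
C6, chr15:4726960-4727209: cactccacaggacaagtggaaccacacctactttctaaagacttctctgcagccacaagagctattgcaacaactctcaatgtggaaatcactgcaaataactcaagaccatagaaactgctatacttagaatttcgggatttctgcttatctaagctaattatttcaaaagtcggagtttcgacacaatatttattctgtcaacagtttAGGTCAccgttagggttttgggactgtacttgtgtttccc
C7, chr15:5063774-5064023: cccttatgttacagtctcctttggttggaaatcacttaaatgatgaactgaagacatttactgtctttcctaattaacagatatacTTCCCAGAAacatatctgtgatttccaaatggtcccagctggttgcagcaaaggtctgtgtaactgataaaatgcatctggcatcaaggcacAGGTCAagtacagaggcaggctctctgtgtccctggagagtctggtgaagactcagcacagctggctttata
For Greb1 (minus strand, the first of its 2 RefSeq starts) the capitals mark TGACCT, the same half-site on the other strand, at -88. The window of its second start held no match to any of the 4 motifs searched, nor did those of Mup7, Mup11, Mup14, Mup15, Mup17 and Mup18, and that of C9 held no AGGTCA.
Greb1, chr12:16800887-16801136: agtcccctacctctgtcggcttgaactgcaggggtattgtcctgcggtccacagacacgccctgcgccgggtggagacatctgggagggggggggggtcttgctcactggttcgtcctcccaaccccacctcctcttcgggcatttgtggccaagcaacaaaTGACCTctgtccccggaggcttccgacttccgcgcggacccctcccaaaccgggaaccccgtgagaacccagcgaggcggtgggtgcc

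Over 300 bases (250 before to 50 after the start) and both strands, AGGTCA was found in 13% of the promoters of called higher genes, 18.9% of called lower genes and 15.5% of all genes tested with a promoter (7852). The half-site AGAACA of glucocorticoid and progesterone receptors was in 16.3%, 17.2% and 14.9%. The STAT motif was in 8.01%, 6.97% and 8.32%. The full palindromic oestrogen response element, GGTCA and its inverted repeat 3 bases apart, was in 0% of both called groups and in 1 of the 7852. Among genes called at over 4-fold, with 59 promoters for the higher and 29 for the lower, AGGTCA was in 22% and 20.7%, AGAACA in 15.3% and 17.2%, the STAT motif in 1.69% and 13.8%, and the full element in 0. The half-site can be part of the full element. These matches describe the letters of the windows only.

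Hamp2 was at 1017, 148.7, 925.5, 295.8 and 1461 CPM on vehicle and at 28.9, 37.1, 31.8, 24 and 35.5 CPM on OC. The lowest vehicle library, replicate 2, was above the highest OC library, and the vehicle libraries were widely spread (log2 fold change -4.61, SE 0.48, adjusted p = 1.56e-06). Hamp, the main hepcidin gene, was at 1622, 1224, 836.6, 819.2 and 922.9 CPM on vehicle and at 267.2, 261.7, 638.5, 629.7 and 628.8 CPM on OC. The groups did not overlap, and OC replicates 1 and 2 were the lowest (log2 fold change -1.16, SE 0.28, adjusted p = 0.00838). Bmp7, a bone morphogenetic protein of the ligand family that induces hepcidin, was at 1.33, 1.48, 1.76, 1.31 and 1.15 CPM on vehicle and at 32, 37.1, 31.9, 26.6 and 38.1 CPM on OC. The spread within each group was small beside the gap (log2 fold change 4.55, SE 0.31, adjusted p = 4.56e-09). Alas1, the first enzyme of haem synthesis, rose from 836.7 ± 229 to 2001 ± 619.4 CPM (log2 fold change 1.26, adjusted p = 0.00114). In the iron and haem list 5 of 29 tested genes were called higher and 4 lower, with a median of -0.01. Of these 3 higher (Bmp7, Alas1 and Cp) and 2 lower (Hamp2 and Hamp) kept their call in each alternative. The transferrin receptor gene Tfrc, at log2 fold change 0.82, lost it in 9 of 19 alternatives (adjusted p up to 0.0987). The higher count was 3 without vehicle replicate 1 or 5 or OC replicate 1 or 5, and the lower count 2 without OC replicate 3.

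Albumin mRNA took a smaller share of the library on OC. Alb (chr5:90460897-90476602, plus strand) held 13.6%, 13%, 13.7%, 12.2% and 13% of the counts in intact lines on vehicle and 8.63%, 8.31%, 8.46%, 9.32% and 6.87% on OC. The OC and vehicle libraries did not overlap (difference -4.77 percentage points, exact permutation p = 0.00794, two-sided). The 79 plasma protein genes with intact lines together took 28.3% ± 0.686 and 23% ± 1.18 (SD, n = 5; difference -5.28 points, exact permutation p = 0.00794). Alb is 1 of these 79 genes and makes up -4.77 of the -5.28 points, so the 2 differences are not separate results. With displaced lines moved back where possible, the differences were -4.59 points for Alb and -4.04 points for the plasma protein lists (exact permutation p = 0.00794 for each). The fall of the lists was then smaller than that of Alb alone, so its size depends on the lines used. The plasma protein genes without Alb were not tested as a group. After scaling, the log2 fold change of Alb was -0.77 (adjusted p = 0.00103). In bulk tissue fewer cells of a type and less RNA per cell cannot be told apart.

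**Figure D3:**
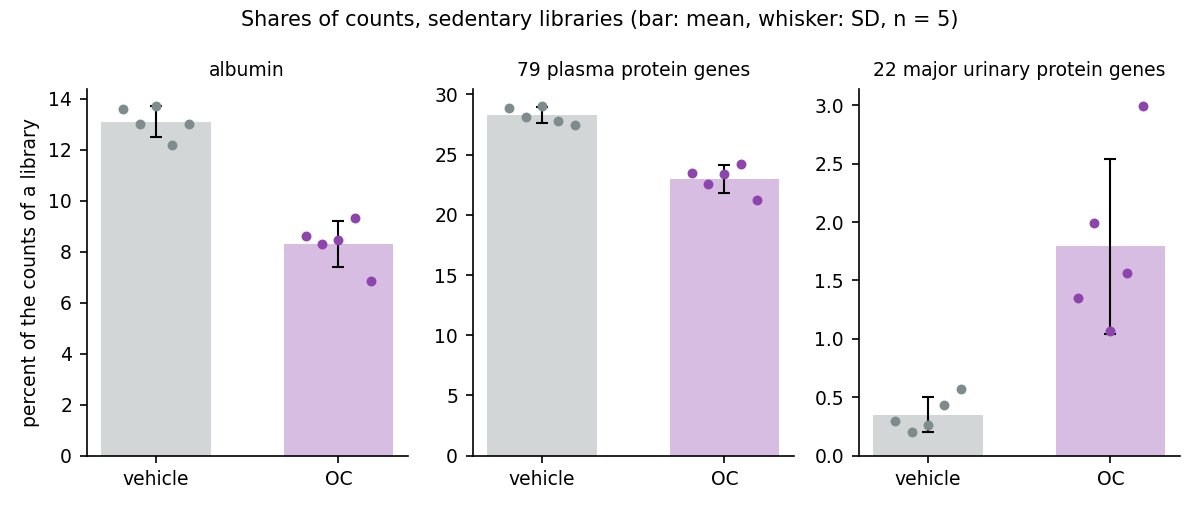
Percent of each library's counts in intact lines taken by Alb, by 79 plasma protein genes (Alb among them) and by 22 major urinary protein genes in the 5 vehicle and 5 OC sedentary libraries (points; bars are means, whiskers SD). For Alb and the plasma proteins each OC library lies below each vehicle library, and for the urinary proteins above.

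Plasma carriers were called higher in 3 and lower in 5 of 15 tested cases, with a median of -0.28. The lower count was 3 without vehicle replicate 1, 4 or 5 or OC replicate 2, 2 without vehicle replicate 3 or OC replicate 5, and 1 without OC replicate 3. Trf, transferrin, fell from 27027 ± 2999 to 20425 ± 1722 CPM (log2 fold change -0.40, adjusted p = 0.028). It did not pass when vehicle replicate 3 (adjusted p = 0.0631) or 5 (0.0506), or OC replicate 3 (0.0647) or 5 (0.0546), was removed. The gene model Gm20425 spans Trf and gave nearly the same values, so the pair counts as 1 result. Hpx, haemopexin, was at 6784 ± 2319 and 4301 ± 401.8 CPM with overlapping groups (log2 fold change -0.66, adjusted p = 0.0238), and at -0.44 without vehicle replicate 2 (adjusted p = 0.07). Without OC replicate 3 its adjusted p was 0.0505. Cp, the copper carrier ceruloplasmin, rose from 1359 ± 178 to 1886 ± 194.5 CPM, a log2 fold change of 0.47 (SE 0.12, adjusted p = 0.0107). Afp, the foetal carrier alpha-fetoprotein, rose from 0.994 ± 0.419 to 4.61 ± 1.43 CPM (log2 fold change 2.22, adjusted p = 0.000358). Mug1, a broad protease inhibitor of rodent plasma, was at 2079, 1300, 2212, 3228 and 1698 CPM on vehicle and at 5211, 5334, 6022, 4707 and 5438 CPM on OC. There was no overlap between the groups (log2 fold change 1.34, SE 0.21, adjusted p = 0.000165).

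In the complement list 4 of 23 tested genes were called higher, each in every alternative, and 2 lower, with a median of 0.06. C6 was at 18.2, 42.8, 16.9, 21.3 and 21.1 CPM on vehicle and at 121.9, 118.8, 88.8, 114.1 and 196.6 CPM on OC. The lowest OC library was above the highest vehicle library, replicate 2 (log2 fold change 2.41, SE 0.27, adjusted p = 3.41e-06). C6 stands in the male-biased list too. C7 rose from 1.1 ± 0.391 to 3.06 ± 0.728 CPM (log2 fold change 1.46, adjusted p = 0.000383). C9, the pore-forming subunit of the same complex, rose from 304.4 ± 55.8 to 571.3 ± 89.8 CPM (log2 fold change 0.91, adjusted p = 3.76e-05). C4bp, a fluid-phase inhibitor, rose from 676.7 ± 103.2 to 939.4 ± 101.6 CPM (log2 fold change 0.47, adjusted p = 0.0104). Mbl2, a mannose-binding lectin, fell from 806.9 ± 81.9 to 536 ± 25.9 CPM (log2 fold change -0.59, adjusted p = 0.00114). Cfb, at log2 fold change -0.32, lost its call in 10 of 19 alternatives (adjusted p up to 0.103), and was the gene missing from the lower count without vehicle replicate 1, 3 or 5 or OC replicate 2, 3, 4 or 5. C3, the central component, was at 13113 ± 2851 and 15701 ± 1570 CPM (log2 fold change 0.26, adjusted p = 0.277).

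Most clotting genes did not pass. Of 17 tested procoagulant genes 2 were called higher and 3 lower. Of these, Ggcx and Kng2 kept their call in each alternative. Ggcx, the carboxylase that activates vitamin K-dependent factors, rose from 74.6 ± 8.5 to 102.4 ± 12.3 CPM (log2 fold change 0.46, adjusted p = 0.00428). Kng2, a kininogen, fell from 569.6 ± 85.2 to 420.5 ± 12.3 CPM (log2 fold change -0.44, adjusted p = 0.00734). F11 (0.63), F10 (-0.33) and Kng1 (-0.34 on the log2 scale) lost theirs in 7, 11 and 12 of 19 alternatives. The higher count was 1 without vehicle replicate 1, 2 or 3 or OC replicate 1, 2, 3 or 5. The lower count was 5 without vehicle replicate 2 and 1 without vehicle replicate 3, 4 or 5 or OC replicate 2, 3, 4 or 5. The fibrinogen chains Fga (4694 ± 1070 and 4370 ± 428.7 CPM, adjusted p = 0.709) and Fgb (5376 ± 1181 and 5167 ± 409.4 CPM, adjusted p = 0.843) did not pass. Of 9 anticoagulant and fibrinolytic genes 1, Anxa2, was lower (-1.22, adjusted p = 0.0152), and -0.48 without vehicle replicate 2, which was at 73.5 CPM against 15.8 to 18.9. Anxa2 did not pass with the 10 sedentary libraries fitted by themselves (adjusted p = 0.0697). Plg, plasminogen, was at 3599 ± 794.4 and 3769 ± 370.5 CPM (adjusted p = 0.792).

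Acute phase genes were called higher in 4 of 19 cases and lower in 3, with a median of 0.00. Orm3, an orosomucoid gene, was at 14.9, 0.609, 9.21, 8.62 and 6.01 CPM on vehicle and at 31.3, 37.1, 34.4, 18 and 42.1 CPM on OC. The groups did not overlap (log2 fold change 2.04, SE 0.41, adjusted p = 0.00182). Saa4, a constitutive serum amyloid A, rose from 410.2 ± 95.6 to 602.8 ± 32.2 CPM (log2 fold change 0.56, adjusted p = 0.014). Il1rn, the interleukin-1 receptor antagonist, fell from 13.6 ± 6.8 to 4.12 ± 0.894 CPM (log2 fold change -1.72, adjusted p = 0.000609). Hp, haptoglobin, at log2 fold change 0.43, lost its call in 6 of 19 alternatives (adjusted p up to 0.076).

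In the lipid transport list, Apoc2, the cofactor of lipoprotein lipase, was at 365.6, 938.2, 433.6, 484.4 and 478 CPM on vehicle and at 1621, 2152, 1427, 1792 and 2023 CPM on OC. Its neighbour Apoc4 was at 1276, 1312, 1243, 1451 and 1610 CPM on vehicle and at 472, 623.5, 491.3, 648.4 and 662.6 CPM on OC. These genes are neighbours on the minus strand of chromosome 7 (chr7:19671579-19677941 and chr7:19678083-19681479) and moved in opposite directions without overlap. Their log2 fold changes were 1.74 (SE 0.20, adjusted p = 4.6e-06) and -1.25 (SE 0.16, adjusted p = 2.31e-05).

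Apoa1, the main HDL protein, fell from 14647 ± 1658 to 10385 ± 765.4 CPM (log2 fold change -0.50, adjusted p = 0.0152). Apoa4 was at 320.9, 4758, 578.5, 408.4 and 539 CPM on vehicle and at 145.2 to 256.6 CPM on OC. The OC and vehicle libraries did not overlap, and the log2 fold change of -2.68 (adjusted p = 0.00324) was -1.16 without vehicle replicate 2 (adjusted p = 0.00342). Vldlr, a lipoprotein receptor, fell from 34.9 ± 11.3 to 11.2 ± 3.38 CPM (log2 fold change -1.64, adjusted p = 0.000116). Mttp, which loads lipid onto nascent particles, rose from 406.7 ± 37.8 to 524.3 ± 35.2 CPM (log2 fold change 0.37, adjusted p = 0.00607). Apoe was at 34582 ± 3543 and 31216 ± 1140 CPM (adjusted p = 0.334). In all 2 of 31 tested genes of this list were called higher and 7 lower, with a median of -0.14, and 2 and 5 of them kept the call in each alternative. Library totals alone gave 5 higher and 5 lower.

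In the list of fatty acid oxidation, which holds known PPARA targets, 9 of 22 genes tested were called lower and 0 higher, with a median of -0.32, and 8 of the 9 kept their call in each alternative. Acot4, a peroxisomal thioesterase, fell from 368.4 ± 91.6 to 157.1 ± 49.4 CPM (log2 fold change -1.23, adjusted p = 0.00113). Acaa1b, a peroxisomal thiolase, was at 1747, 1879, 1882, 1776 and 1128 CPM on vehicle and at 1094, 924.7, 889.6, 877.7 and 714.5 CPM on OC. There was no overlap between the groups, and vehicle replicate 5 lay close to the highest OC library (log2 fold change -0.90, adjusted p = 0.00139). Acot4 and Eci3 stand in the female-biased list too. Fgf21, a fasting hormone, had overlapping groups at 12.9 ± 12.3 and 3.87 ± 1.68 CPM (log2 fold change -1.73, adjusted p = 0.0123), and -0.94 without vehicle replicate 2 (adjusted p = 0.0496).

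In fatty acid and triglyceride synthesis 6 of 30 tested genes were called lower and 0 higher, with a median of -0.19. The count was 3 without OC replicate 1, 3 or 5. Pparg, a nuclear receptor of fat storage, fell from 15.9 ± 5.02 to 8.23 ± 1.12 CPM (log2 fold change -0.94, adjusted p = 0.000868), and G0s2, an inhibitor of the lipase ATGL, from 294.2 ± 57.2 to 103.1 ± 60.8 CPM (-1.51, adjusted p = 0.0071). Plin2, a lipid droplet coat protein, was at 541.4 ± 272 and 294.9 ± 66 CPM (log2 fold change -0.88, adjusted p = 0.0196), and missed the threshold without vehicle replicate 2 (-0.55, adjusted p = 0.0647) or OC replicate 5 (adjusted p = 0.0506). Plin2 also missed it with the 10 sedentary libraries fitted by themselves (adjusted p = 0.0666). Scd1, the stearoyl-CoA desaturase, varied from 1396 to 18474 CPM within the vehicle group and did not pass (adjusted p = 0.587).

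In cholesterol synthesis and its control 4 of 32 tested genes were called higher and 2 lower, with a median of 0.29. Without vehicle replicate 5 the count of higher genes was 7, and with library totals alone it was 9. Mvk, mevalonate kinase, rose from 13.5 ± 2.28 to 28.6 ± 4.32 CPM (log2 fold change 1.08, adjusted p = 0.0108). Nsdhl, a sterol dehydrogenase, rose from 44.5 ± 18.9 to 112.5 ± 14.1 CPM (1.34, adjusted p = 0.00473). Idi1, at log2 fold change 0.99, lost its call in 9 of 19 alternatives (adjusted p up to 0.102). Acat1, which also serves ketone body use, fell from 783.1 ± 108.1 to 466.5 ± 43.3 CPM (-0.75, adjusted p = 0.000299). Soat2, which esterifies cholesterol, fell from 65.2 ± 8.68 to 47 ± 3.36 CPM (-0.47, adjusted p = 0.00148). Only 9 of 36 listed bile acid genes were tested. By edgeR, DESeq2 or limma voom 0 of these were called, with 2 at an unadjusted p under 0.05. There was 1 higher with library totals alone, without vehicle replicate 3 and without OC replicate 3, and 2 were lower without vehicle replicate 2.

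Genes known as targets of the xenobiotic receptors CAR and PXR rose in 7 of 13 tested cases and fell in 2, with a median of 0.42, and 6 of the 7 kept their call in each alternative. Among them Ces2a and Ces2c (higher) and Ces1e (lower) are carboxylesterases and are counted again in the carboxylesterase list below, so these lists are not independent. The lower count was 4 without vehicle replicate 2 and 1 without vehicle replicate 4 or OC replicate 2 or 5. The cytochrome P450 genes Cyp2b10 and Cyp3a11, the usual reporters of these receptors, had displaced lines and were not used here. Por, the reductase that feeds electrons to cytochromes P450, was at 1782, 1063, 923.3, 1388 and 1098 CPM on vehicle and at 2219, 2143, 2893, 2411 and 2113 CPM on OC. The groups did not overlap (log2 fold change 0.91, SE 0.17, adjusted p = 0.00111). Ahr, the dioxin receptor, was at 53.4 ± 14 and 90.9 ± 23.2 CPM with overlapping groups (log2 fold change 0.77, adjusted p = 0.00885).

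In the list of carboxylesterases, which hydrolyse drug and lipid esters, 4 of 16 tested genes were called higher and 6 lower. Ces2a was at 271.3, 99.3, 240.4, 212.5 and 237.8 CPM on vehicle and at 794.9, 776.6, 740.3, 737.5 and 624.9 CPM on OC (log2 fold change 1.79, SE 0.18, adjusted p = 1.06e-06). Ces2c rose from 5.97 ± 1.87 to 23.2 ± 2.88 CPM (1.96, adjusted p = 0.000594) and Ces3b from 149.8 ± 77.7 to 456.8 ± 76.3 CPM (1.61, adjusted p = 0.00216). Ces1b was at 208.5, 179.6, 180.5, 211.7 and 280.2 CPM on vehicle and at 38, 43.5, 59.2, 49.5 and 42.7 CPM on OC (log2 fold change -2.19, SE 0.15, adjusted p = 4.73e-09). Neither Ces2a nor Ces1b overlapped between groups. Ces1e fell from 204.8 ± 42.6 to 118.6 ± 14.7 CPM (-0.79, adjusted p = 0.00133), with vehicle replicate 2 inside the OC range. Each of the 4 higher genes kept its call in every alternative, and 3 of the 6 lower did. Library totals alone gave 6 higher and 4 lower. The list also holds Bche, a cholinesterase and not a Ces gene, which is 1 of the 6 lower. The Ces genes lie in clusters of similar copies on chromosome 8, so reads may be shared between neighbours.

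**Figure D4:**
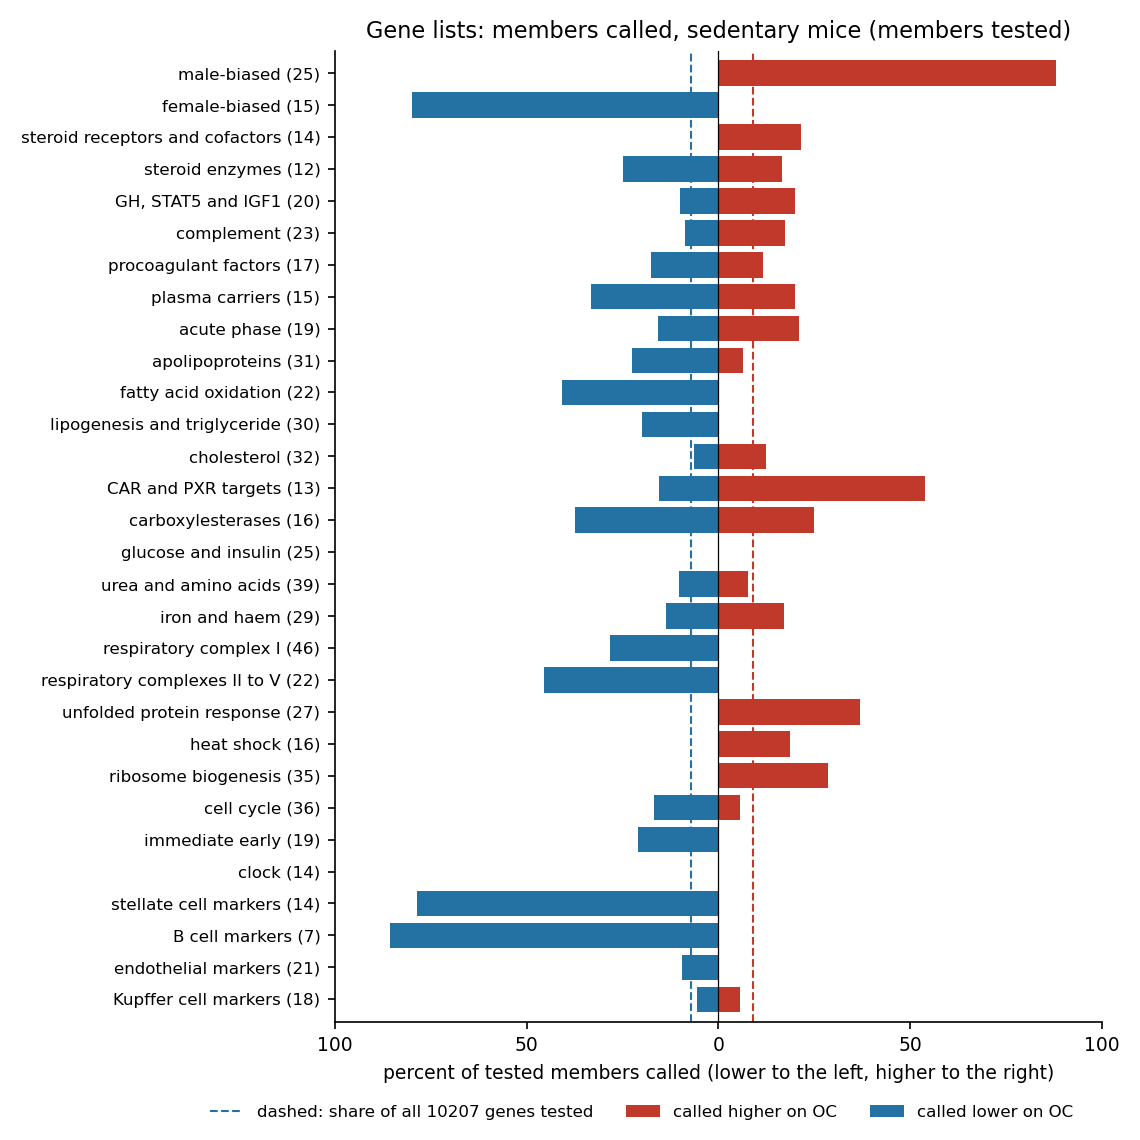
Percent of the tested members of 30 gene lists (number tested in brackets) called higher on OC (red, right) or lower (blue, left) in sedentary mice; dashed lines mark 9.11% and 7.2%, the shares over all 10207 genes. The male-biased list reaches 22 of 25 higher and the female-biased list 12 of 15 lower.

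Some nuclear genes of the respiratory chain were slightly lower. Of 46 tested complex I genes 13 were called lower and 0 higher, with a median of -0.31. The count was 6 without vehicle replicate 5, 7 without OC replicate 1, 8 without OC replicate 3 and 3 with library totals alone, and 3 genes kept the call in each alternative. Ndufa5, a complex I subunit, was at 84.7, 81.9, 87.1, 85.7 and 118 CPM on vehicle and at 55.2, 66.5, 54.1, 64.7 and 68 CPM on OC. The OC and vehicle libraries did not overlap, and vehicle replicate 5 was the highest (log2 fold change -0.57, SE 0.11, adjusted p = 0.0013). Ndufb8 fell from 317.5 ± 72.5 to 210.2 ± 26.3 CPM (-0.59, adjusted p = 0.0146).

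For complexes II to V, 10 of the 22 subunit genes tested were called lower and 0 higher, with a median of -0.39. The count was 6 without vehicle replicate 5, OC replicate 1 or OC replicate 3, and 5 with library totals alone. Uqcrc2, a core protein of complex III, fell from 384.2 ± 53.9 to 280.5 ± 18 CPM (log2 fold change -0.45, adjusted p = 0.00324), and Uqcrb from 269.5 ± 60.7 to 179.7 ± 17.1 CPM (-0.58, adjusted p = 0.00922). Cox7a1, a muscle-type subunit of cytochrome oxidase, was at 6.07 ± 2.56 and 2.03 ± 1.28 CPM with overlapping groups (-1.58, adjusted p = 0.00912). Vehicle replicate 5 was also the highest vehicle library for Uqcrb, at 369.3 CPM against 205.7 to 268.1, and its part in the list's count is the change given above. Mgst3, a microsomal glutathione transferase, fell from 66.6 ± 9.19 to 30.2 ± 3.01 CPM, a log2 fold change of -1.14 (SE 0.16, adjusted p = 5.67e-05). In the antioxidant list 1 of 42 tested genes was called higher and 6 lower, with a median of -0.07, and Mgst3 was the 1 lower gene that kept its call in each alternative. With library totals alone 4 were higher and 1 lower. The higher count was 3 without vehicle replicate 2 and 0 without vehicle replicate 5 or OC replicate 1. Lower genes numbered 3 without vehicle replicate 4 or OC replicate 2, and 2 without OC replicate 1 or 3.

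Part of the genes of protein folding in the endoplasmic reticulum rose. Of 27 tested genes of the unfolded protein response 10 were called higher and 0 lower, with a median of 0.36. The count was 6 without vehicle replicate 1 or 4 or OC replicate 1, and 6 genes kept their call in each alternative. Ern1, the sensor IRE1-alpha, was at 60.1, 43.4, 71.6, 63.2 and 67.6 CPM on vehicle and at 140.5, 138.3, 116.8, 102.5 and 128.2 CPM on OC, without overlap (log2 fold change 1.03, SE 0.15, adjusted p = 8.22e-05). Ero1lb, an oxidase of disulfide formation, rose from 48.3 ± 8.13 to 92.2 ± 14.8 CPM (0.93, adjusted p = 9.37e-05). Atf6b rose from 17.8 ± 1.75 to 28.5 ± 2.3 CPM (0.67, adjusted p = 0.000218). Hspa5, the chaperone BiP, was at 518.1 to 689.1 CPM on vehicle and at 1064, 930.1, 528.4, 564.7 and 763.3 CPM on OC, and did not pass (log2 fold change 0.32, adjusted p = 0.276).

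The integrated stress response list had 1 higher and 4 lower calls among 18 tested genes. Nupr1, a stress-induced nuclear protein, was at 2.49, 14.3, 4.45, 3.51 and 4.42 CPM on vehicle and 1.32 to 1.77 CPM on OC (log2 fold change -1.90, adjusted p = 0.000904), and at -1.26 without vehicle replicate 2. The other lower genes were Vldlr and Fgf21, given above, and Atf5 (-0.67), which lost its call in 11 of 19 alternatives. Ddit4, the 1 higher gene (1.46), lost its call in 9, among them the removal of vehicle replicate 1, 3, 4 or 5 or OC replicate 1, 2, 3 or 5. Among heat shock genes 3 of 16 were called higher, led by the co-chaperone Bag3, which rose from 37.2 ± 5.89 to 66.8 ± 27.4 CPM (log2 fold change 0.84, adjusted p = 0.00921). The count was 5 without OC replicate 3 or 4 and 6 with library totals alone.

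Of 35 tested genes of ribosome biogenesis 10 were called higher and 0 lower, with a median of 0.23, and the count was 5 without OC replicate 1 and 16 with library totals alone. Rrp12 rose from 6.12 ± 1.7 to 13.4 ± 2.18 CPM (log2 fold change 1.14, adjusted p = 0.000123) and Rrs1 from 24.1 ± 3.63 to 33.9 ± 5.1 CPM (0.50, adjusted p = 0.00667). In the cell cycle list 2 of 36 were higher and 6 lower, with a median of -0.42, which was 0.08 without vehicle replicate 2. The lower count was 2 without vehicle replicate 2 or with library totals alone and 3 without OC replicate 1, 3, 4 or 5, and the higher count was 1 without OC replicate 4. Cdk6 rose from 25.8 ± 2.52 to 37.2 ± 5.53 CPM (0.53, adjusted p = 0.00768), while the repressor E2f8, at 7.02 ± 2.21 and 20.2 ± 11.6 CPM (1.52, adjusted p = 0.017), missed the threshold without OC replicate 4 (adjusted p = 0.0511). Cenpa, the centromeric histone, was at 8.65 ± 2.26 and 5.08 ± 1.46 CPM with overlapping groups (-0.76, adjusted p = 0.0172).

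Of 19 tested immediate early genes 4 were called lower and 0 higher. Klf6 was at 31.6, 77.7, 38.9, 44 and 29.3 CPM on vehicle and at 16.3, 17.2, 25.7, 23.1 and 17.1 CPM on OC, without overlap (log2 fold change -1.16, adjusted p = 0.000512). Fos was at 118.3 CPM in vehicle replicate 4 and 10.7 to 33.9 in the other vehicle libraries, against 3.52 to 12.7 CPM on OC, so the groups overlapped. The fitted log2 fold change of Fos was -2.19 (adjusted p = 0.00657), and -1.22 without vehicle replicate 4. Ier3 fell from 4.28 ± 0.873 to 2.26 ± 0.794 CPM (-0.93, adjusted p = 0.0171). Jun was at 605.3 CPM in vehicle replicate 4 against 161.7 to 175.5 in the others and 99.6 to 174.5 on OC, and without that library its adjusted p was 0.221. The list's lower count was 7 without OC replicate 5. In the interferon list 1 of 35 tested genes was called higher and 2 lower, and 4 and 1 with library totals alone. Gbp2, a guanylate-binding protein, was at 22.3 ± 5.95 and 8.75 ± 1.86 CPM (log2 fold change -1.35, adjusted p = 0.000491), and was the lower gene that kept its call in each alternative. The higher count was 0 without vehicle replicate 1, 3 or 5 or OC replicate 1, 2 or 5, and 3 without vehicle replicate 2 or OC replicate 4. The lower count was 4 without OC replicate 3 and 1 without vehicle replicate 2, 3 or 4 or OC replicate 1, 2, 4 or 5.

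Among 39 tested genes of the urea cycle and amino acid breakdown 3 were called higher and 4 lower, and 6 and 2 with library totals alone. The higher count was 1 without vehicle replicate 1 or 4 or OC replicate 1, 2 or 5. The lower count was 8 without vehicle replicate 2 and 2 without vehicle replicate 3 or OC replicate 2 or 5. Csad, the enzyme that makes hypotaurine on the way to taurine, was at 52.8, 230.1, 44.1, 68.6 and 53.4 CPM on vehicle and at 365.5, 351, 291.7, 517.7 and 401.2 CPM on OC. There was no overlap between the groups, and the log2 fold change was 2.10 (SE 0.37, adjusted p = 0.000643), or 2.82 without vehicle replicate 2. Otc, the urea cycle enzyme on the X chromosome, fell from 653.1 ± 114.8 to 421 ± 26.6 CPM (-0.63, adjusted p = 0.000358), and Prodh2, of hydroxyproline breakdown, from 376 ± 51.1 to 237.3 ± 24.2 CPM (-0.66, adjusted p = 0.000169). Among 25 genes of glucose and insulin signalling and among 14 clock genes 0 were called by edgeR, with 10 and 1 at an unadjusted p under 0.05. DESeq2 called 3 of the glucose genes (1 higher, 2 lower) and 0 of the clock genes, and limma voom 0 of either. With library totals alone 6 glucose genes were called higher. Leaving out 1 library gave 3 higher glucose genes without vehicle replicate 3, 1 lower without vehicle replicate 2, 3, 4 or 5 or OC replicate 3, and 2 lower clock genes without vehicle replicate 2.

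Several other large changes were not described above. Prtn3 (chr10:79874476-79883174, plus strand), the neutrophil protease proteinase 3, was at 0.0828, 0.261, 0.614, 0.438 and 2.38 CPM on vehicle and at 60.1, 68, 34.9, 22.5 and 109 CPM on OC. The groups did not overlap, and the log2 fold change was 6.31 (SE 0.61, adjusted p = 6.97e-07), or 7.32 without vehicle replicate 5. The other 5 tested neutrophil markers, S100a8, S100a9, Lcn2, Mmp9 and Csf3r, summed to 12.9 to 28.3 CPM on vehicle and 12.7 to 28.7 CPM on OC. Among these Lcn2 was at 14.5 ± 5.25 and 11.9 ± 5.09 CPM (adjusted p = 0.689).

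Krt4 and Krt79, epithelial keratins whose genes lie next to each other on chromosome 15, had 1 and 3 counts over the vehicle libraries and 851 and 672 on OC. The vehicle counts were all in replicate 5. Their ratios were 751.8 (95% counting interval 134.6 to 29728) and 197.9 (67.4 to 962). Krt79 was at 10.8, 11.4, 4.61, 6.57 and 14.8 CPM in the OC libraries, and Krt4 at 12.1, 9.89, 22.1, 4.27 and 14.1 CPM. Epp13 had 3 counts on vehicle, again in replicate 5, and 507 on OC (ratio 149.3, interval 50.8 to 726.4). Obp2a, a lipocalin gene of the male-biased list, had 0 counts on vehicle and was at 5.61, 6.31, 1.54, 3.52 and 3.49 CPM on OC, an increase of at least 85.7-fold when the vehicle group is set to 3 counts. These intervals and floors cover counting error only.

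Among the large decreases, Krt23 was at 14.9, 35.7, 20.8, 9.42 and 4.68 CPM on vehicle and at 1.02, 1.11, 0.614, 1.9 and 0.388 CPM on OC, without overlap (log2 fold change -4.05, SE 0.45, adjusted p = 3.82e-06). Tcf24, a basic helix-loop-helix factor, fell from 12.1 ± 3.45 to 1.17 ± 0.544 CPM (-3.35, adjusted p = 7.75e-06). Defb1, a beta-defensin, fell from 6.74 ± 2.49 to 0.932 ± 0.305 CPM (-2.84, adjusted p = 2.9e-06). Osbpl5, an oxysterol-binding protein, fell from 14.5 ± 6.35 to 2.65 ± 0.858 CPM (-2.44, adjusted p = 9.75e-06). Gucy2c, the guanylin receptor, was at 11.4 CPM in vehicle replicate 2, 1.83 to 2.47 in the other vehicle libraries and 0.384 to 0.729 on OC, and its log2 fold change was -2.87 with that library and -1.97 without. Rufy4 fell from 3.41 ± 1.98 to 0.457 ± 0.321 CPM (-2.87, adjusted p = 0.00378). In the list of keratins and epithelial junction genes 2 of 19 tested were higher (Krt4, Krt79) and 3 lower. The other lower genes were Ocln, the tight junction protein occludin, at -0.71 (adjusted p = 0.000227), and Cldn7, at -1.03 (adjusted p = 0.0229, and up to 0.0619 in the 4 of 19 alternatives that ended its call).

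The 14 tested hepatocyte markers, Alb among them, summed to 187788 to 224512 CPM on vehicle and 126251 to 152964 CPM on OC. Of these 1 was called higher and 3 lower. Markers of other liver cells moved for some cell types. The 14 tested stellate cell and fibroblast markers summed to 729 to 1105 CPM on vehicle (median 883) and 458 to 784 CPM on OC (median 517), and 11 were called lower. That count was 4 without vehicle replicate 2, 2 without OC replicate 1 and 6 without OC replicate 2 or 5, and it was 4 with library totals alone and 2 with the 10 sedentary libraries fitted by themselves. Lrat, which stores retinol as ester, was at 38.5, 60.1, 41.3, 42.7 and 41.3 CPM on vehicle and at 16.2, 18.5, 15.7, 32.7 and 19.3 CPM on OC, and was the 1 marker that kept its call in each alternative (log2 fold change -1.13, adjusted p = 0.00941). Cygb fell from 24.8 ± 9.85 to 15 ± 2.55 CPM (-0.72, adjusted p = 0.0129), and missed the threshold with the 10 sedentary libraries fitted by themselves (adjusted p = 0.0529). Des, desmin, was at 90.4 CPM in OC replicate 3 and 6.34 to 14.3 CPM in the other 9 libraries (adjusted p = 0.23).

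The 7 tested B cell markers summed to 14.3 to 22.8 CPM on vehicle and 5.82 to 11.4 CPM on OC, and 6 were called lower (3 without OC replicate 5), with a median of -1.13. Cd79a fell from 2.42 ± 0.943 to 0.921 ± 0.375 CPM (log2 fold change -1.38, adjusted p = 0.00639) and Cd22 from 4.8 ± 0.823 to 2.68 ± 0.542 CPM (-0.84, adjusted p = 0.0128). The 10 tested T and NK cell markers summed to 14.7 to 19.8 CPM on vehicle and 9.95 to 14.9 CPM on OC, and 2 were called lower. That count was 0 without vehicle replicate 2 or OC replicate 1 or 2, and 0 with library totals alone. Of the 2 genes 0 kept the call in each alternative. The 18 tested Kupffer cell markers summed to 731 to 1250 and 744 to 1023 CPM, and the 21 endothelial markers to 806 to 1064 and 782 to 1121 CPM. In the Kupffer list Csf1r was higher (69.9 ± 12 to 104.3 ± 20.1 CPM, log2 fold change 0.58, adjusted p = 0.0113). Mmp12, a macrophage protease, was lower with vehicle replicate 2, which was at 57.1 CPM against 0.177 to 1.84 in the other 4, and did not pass without it (adjusted p = 0.439). In the endothelial list Rspo3 (-0.48) and Egfl7 (-0.42) were lower and lost their calls in 4 and 12 of 19 alternatives. The part of these cell types in the gene groups above was not tested.

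The same diets were also compared in running mice, which share no library with the sedentary groups but share the fit's estimate of spread. There 7.09% of the genes tested were called higher and 6.06% lower. Of the 930 genes higher in sedentary mice 339 (36.5%) were called higher in running mice and 804 (86.5%) had the same sign. Of the 735 lower genes 256 (34.8%) were called lower and 638 (86.8%) had the same sign. Seen from running mice, 46.8% of the 724 higher and 41.4% of the 619 lower genes were called in sedentary mice too. Over 2-fold the counts were 146 of 171 higher and 90 of 183 lower.

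For Mup20, Lifr, Bmp7 and Hamp2 the running log2 fold changes were 7.67, 2.70, 4.40 and -4.26. In running mice 21 of the 25 male-biased genes were called higher and 15 of the 15 female-biased genes lower. For Nsdhl and Mvk of cholesterol synthesis the running values were 0.37 and 0.13, for Ndufb8 and Uqcrb -0.12 and -0.04, for Bag3 0.05 and for Ggcx -0.05, and none of these 6 passed there. Srd5a1 had 2.0 in sedentary and 0.83 in running mice. The single genes of this paragraph are examples and were not picked by a rule. By list, 15 of 27 tested unfolded protein response genes and 9 of 35 ribosome biogenesis genes were called higher in running mice. Of 32 cholesterol genes 0 were higher and 2 lower there, and of 46 complex I genes 0 and 3.

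The difference of the diet effect between running and sedentary mice was itself tested. It passed for 0 genes (0% of those tested; edgeR, smallest adjusted p = 0.0995), with 1802 genes (17.7%) at an unadjusted p under 0.05, while DESeq2 called 119, limma voom 0 and limma voom with sample weights 4. Genes called in sedentary mice only are therefore not shown to differ from running mice. The 3 genes called higher in sedentary and lower in running mice, named here after their values were seen, were Pm20d2 (0.79 and -0.82), Paqr9 (0.47 and -0.58) and Mfsd13a (0.56 and -0.51). Their interaction did not pass in edgeR. In sedentary mice the calls were lost in 1, 10 and 4 of the 19 alternatives.

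**Figure D5:**
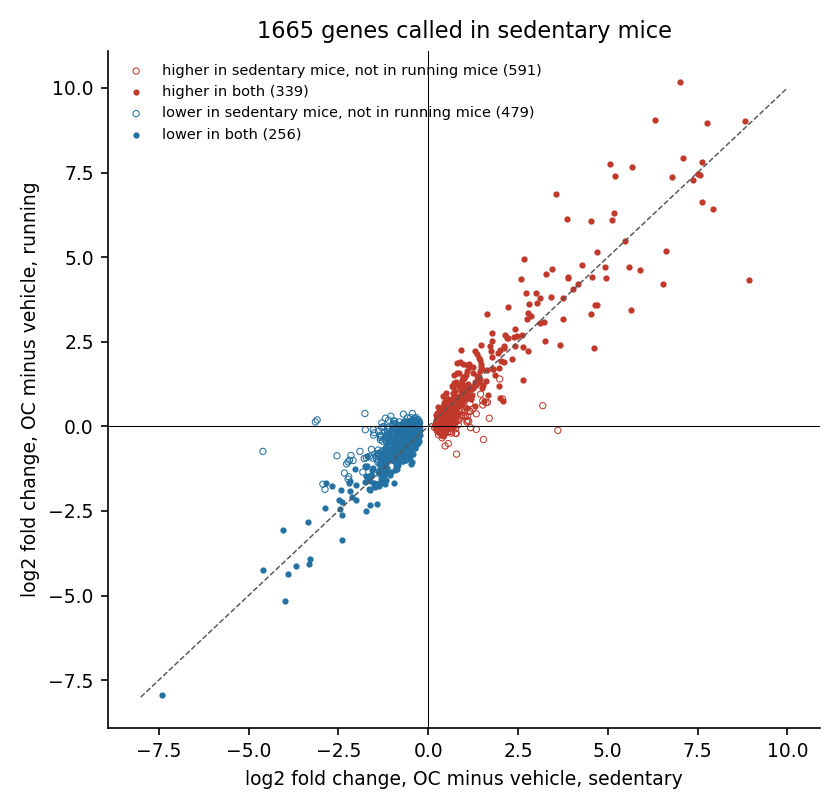
Log2 fold change (OC minus vehicle) in running mice (y axis) against that in sedentary mice (x axis) for the genes called in sedentary mice, red higher and blue lower, filled where also called in the same direction in running mice. Of the 930 red points 804 and of the 735 blue points 638 have the same sign on both axes.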

How the data were processed

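Liver RNA of 20 mice was sequenced, 1 library a mouse, in 4 groups of 5 read from the labels. The deposited values are estimated counts per gene, whole in all but 2 genes. Per the submitters' processing notes, reads were aligned with STAR to mm10, and R 4.05 and limma are listed without a role. How reads were counted, with which annotation and strand setting, is not given in the sources used here, so overlapping and antisense genes cannot be separated. Of 35504 lines, 23993 (67.58%) had intact counts and 11511 (32.42%) were displaced, undecided or not whole and were not used. The table has 0 unused columns.

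Counts were fitted with edgeR 4.0.16 in R 4.3.3 (filterByExpr, TMM, quasi-likelihood F-test, Benjamini-Hochberg), with all 20 libraries and 1 mean per group. The 10207 genes tested hold 99.95% of the counts in intact lines. Library totals and shares of counts are also over intact lines, so counts in the lines not used are outside them. CPM uses TMM-scaled library sizes and SD is over 5 mice. The common biological coefficient of variation was 0.178. Fold ratios of genes with 1 to 3 vehicle counts have exact 95% intervals. The scripts were tested on simulated data. DESeq2 1.42.0, limma 3.58.1, other scalings and filters, and leaving out each library were the alternatives. The analysis plan took whole counts, and every line fitted held whole counts.

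Lists and genes were chosen with earlier results of these data known. Listed genes without an intact line or under the filter were left out. For example, 15 of 38 listed female-biased genes, 22 of 49 of fatty acid oxidation and 13 of 54 CAR and PXR targets were tested. Whether the members left out moved alike was not tested. Genes were named by a rule: the 12 largest non-overlapping changes each way, the 5 most abundant called genes each way, and up to 3 called members each way and 2 uncalled ones per list, plus a panel. Some genes under it are not reported here. Genes outside it, among them C4bp, Ces3b, Idi1, Stat3, Jun, Atf5, Tfrc, Pm20d2, Paqr9 and Mfsd13a, were chosen after their values were seen. Promoters are RefSeq's on GRCm38.p6. Gene coordinates are GRCm38.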

Additional observations from a re-analysis of the deposited data

Results flagged for a closer look

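In groups of 5 libraries, a value was picked out where its gap to the nearest other library was more than 0.71 of the group's whole range on the log2(CPM + 0.5) scale. Chance alone gives this in about 1 in 20 groups of normally spread values. It was met in 36 of 302 groups checked, 13 of them at vehicle replicate 2. Some groups hold almost only 0 counts, genes vary together, and some genes were chosen after their values were seen. The 1 in 20 is therefore no measure of how many groups chance would pick out here. Each value is followed by the range of the other 4 libraries of its group, in CPM.

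Vehicle replicate 2 was the highest vehicle library for A1bg (106.4 against 10.9 to 14.7), Gucy2c (11.4 against 1.83 to 2.47), Apoa4 (4758 against 320.9 to 578.5) and Igfbp3 (37.6 against 19.1 to 23). The same library was also the highest for C6 (42.8 against 16.9 to 21.3), Csad (230.1 against 44.1 to 68.6), Lrat (60.1 against 38.5 to 42.7) and Mmp12 (57.1 against 0.177 to 1.84). The same library was also the highest for Anxa2 (73.5 against 15.8 to 18.9) and Rspo3 (9.56 against 6.43 to 7.07). Vehicle replicate 2 was the lowest vehicle library for Prlr (189.2 against 405.0 to 538.6), Fmo1 (240.3 against 383.4 to 449.0) and Ces2a (99.3 against 212.5 to 271.3). Vehicle replicate 4 was the highest vehicle library for Mup1 (0.073 against 0), Greb1 (0.073 against 0) and Jun (605.3 against 161.7 to 175.5). Vehicle replicate 5 was the highest vehicle library for Mup18 (1.59 against 0.0828 to 0.261), Krt4 (0.0883 against 0), Krt79 (0.265 against 0) and Epp13 (0.265 against 0). The same library was also the highest for Ndufa5 (118.0 against 81.9 to 87.1) and Mgst3 (82.7 against 60.5 to 65.5). Vehicle replicate 5 was the lowest vehicle library for Acaa1b (1128 against 1747 to 1882).

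OC replicate 1 was the highest OC library for Anxa2 (14.1 against 11.3 to 12). OC replicate 2 was the lowest OC library for Csf3r (3.32 against 3.99 to 4.19). OC replicate 3 was the highest OC library for Esr1 (156.9 against 113.0 to 117.1), Des (90.4 against 6.34 to 11) and Cox7a1 (4.3 against 1.29 to 1.69). OC replicate 3 was the lowest OC library for C4bp (762.1 against 952.3 to 1005). OC replicate 4 was the highest OC library for Lrat (32.7 against 15.7 to 19.3). OC replicate 4 was the lowest OC library for Stat5a (29.6 against 55.1 to 61) and Tfrc (24.3 against 51.4 to 59.4). OC replicate 5 was the highest OC library for Mup7 (436.1 against 4.23 to 14.3). OC replicate 5 was the lowest OC library for Igfbp2 (331.5 against 531.1 to 589.3), Hsd17b6 (33.5 against 133.1 to 215.7) and Apoa1 (9047 against 10574 to 10992).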

How the results depend on the processing

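Of 147 genes named, 128 were called in sedentary mice, and 95 of these kept their call in each of the alternatives that gave a value. The other 33 lost it in at least 1, of 19 uncalled genes 3 were called in at least 1, and 0 of the 128 turned in direction, while uncalled genes such as Bcl6, Scd1 and Des lay on both sides of 0. The number of genes called ran from 998 to 1629 when 1 sedentary library was left out, of higher genes from 549 to 938 and of lower genes from 449 to 702. Over 2-fold it ran from 310 to 381. Library totals alone gave 1712 higher and 360 lower (plasma carriers 3 lower, procoagulant genes 1 lower, anticoagulant genes 2 higher, triglyceride synthesis 2 higher, endothelial markers 0 lower, Kupffer markers 3 higher). The 10 sedentary libraries fitted by themselves gave 1123 called genes, 634 higher and 489 lower. The test of the difference between running and sedentary mice, with 0 genes in edgeR, gave 119 in DESeq2 and 4 in limma voom with sample weights, and 0 to 2 when 1 library was left out. The 595 genes called alike in sedentary and running mice became 900 in limma voom with sample weights, and 457 to 719 without 1 library. Moving displaced lines back leaves 19 libraries in the fit, and those 19 without the moved lines gave 1597 called genes. This and the counts per gene list were chosen after seeing the data. The cause of these changes was not tested. No paired analysis was possible because replicate numbers only follow the order of the samples and do not tie mice across groups. Genes under 1 CPM have few counts, so their folds are imprecise.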
